A study of Mus musculus with 4 samples.

Results

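The clustered protocadherin genes were described in the prefrontal cortex of 14-week-old female mice. The animals were crosses of C57BL6J and Spretus, a strain of another mouse species, and all carried a mutation of the long noncoding RNA gene Xist on the maternal allele. There was no group without that mutation, so the comparison made here is between the C57 and the Spretus allele inside the same tissue. RNA-seq and MethylC-seq, which reads cytosine methylation after bisulfite treatment, gave 2 libraries each. Per the labels' protocols the nucleic acids came from frontal tissue of pooled animals, and nothing says that the 2 RNA libraries came from different pools, so p-values cover the spread between the sequenced libraries alone, which may be technical. Members were all gene identifiers whose listed name was Pcdha, Pcdhac, Pcdhb, Pcdhga, Pcdhgb or Pcdhgc followed by a number. This gave 59 identifiers under 56 names out of 46320 in the tables, all on chromosome 18: 15 of the alpha, 22 of the beta and 22 of the gamma subcluster.

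Protocadherins are cell surface proteins of the cadherin superfamily, and the clustered ones give each neuron a molecular identity through strict binding of like to like, which lets a neuron tell its own branches from those of other neurons. Each alpha or gamma gene has its own large variable exon and promoter and is spliced to constant exons that all genes of that subcluster share, whereas each beta gene is contained in an exon of its own. Single neurons are known to pick a few alternate alpha, beta and gamma promoters largely at random, separately on each chromosome copy, while the C-type genes at the end of the alpha and gamma subclusters (Pcdhac1, Pcdhac2, Pcdhgc3, Pcdhgc4 and Pcdhgc5) are used more broadly. Bulk tissue averages over these choices, and fewer cells that use a gene cannot be told apart from less RNA per cell.

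Some rows need care with their names. The identifier ENSMUSG00000023036.13, listed under Pcdhga8, is Pcdhgc4 in the table of gene names and in RefSeq GRCm38.p6, and is called Pcdhgc4 here. A row listed under Pcdha11 that starts at 37005203 (ENSMUSG00000007440.10) lies where RefSeq has Pcdha10 and is called Pcdha10 here, although the table of gene names gives it as Pcdha11. A row listed under Pcdha4 (ENSMUSG00000103458.1, 36952741 to 37840200) runs from the alpha into the gamma subcluster and is Gm42416 in the table of gene names. The listed loci of the alpha rows apart from Gm42416 end between 37187657 and 37187661 and those of the gamma rows between 37841870 and 37841873, so that they overlap their neighbours over the shared constant exons. For reads in exons that belong to several genes, the authors' counting rule is not given in the sources used here.

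Reads assigned to an allele numbered 4768237 in library 1 and 1291903 in library 2. Members took 7848 and 1848 of them, or 0.165% and 0.143%, with a median of 114 and 25 reads per member. FPKM values, which are scaled to gene length and sequencing depth for both alleles together, had a median ratio of library 1 to library 2 of 5.73 over tested autosomal genes and 5.58 over members, so levels are compared within a library only. The tissue carried markers of cortical neurons (Rbfox3, Snap25, Syt1 and Map2, median FPKM 455 and 107) and of oligodendrocytes (101 and 10.9). Blood markers (Hba-a1, Hbb-bs and Alas2) had medians of 291 and 20.5, and their part in the results was not tested. Against the median ratio of 5.73, library 1 exceeded library 2 by more for the blood and oligodendrocyte lists and by less for the neuron list. The excess was also larger for excitatory neurons (medians 153 and 22.1), astrocytes (21.9 and 3.10) and microglia (18.3 and 2.55). For interneurons (18.3 and 3.77) it was smaller, so the neuronal lists did not all go the same way. Whether the libraries differ in tissue composition was not tested. By contrast, the lists for serotonergic neurons, which are known for strong use of Pcdhac2, and for olfactory bulb had medians of 0.0723 and 0.154 in library 1. Xist had 31 C57 and 2158 Spretus reads in library 1 and 9 and 795 in library 2, so nearly all of its reads came from the Spretus allele. Since the mutation lay on the maternal allele, this places C57 on the maternal and Spretus on the paternal side. Strain and parent of origin therefore cannot be told apart in any allelic value given here.

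By FPKM, the most abundant members were C-type genes. Pcdhgc5, the last gene of the gamma subcluster, had an FPKM of 56.4 in library 1 and 7.65 in library 2. Pcdhgc3 followed with 13.3 and 2.12, and Pcdhac2, the last gene of the alpha subcluster, with 12.5 and 2.09. These were the 3 highest members in each library. Pcdhgc5 stood at the 94.8th percentile of all genes with an FPKM above 0 in library 1 and the 91.8th in library 2, against a median of the 51.1st and 44.3rd percentile over members. The C-type genes were not all high. Pcdhgc4 had an FPKM of 5.81 and 0.565, and Pcdhac1 had 1.30 and 0.241, within the range of the alternate alpha genes in each library. The 5 C-type genes made up 43.1% of the summed member FPKM in library 1 and 37.0% in library 2. Of the allele-assigned reads of members they took only 17.5% and 19.8%. The FPKM of these genes can include reads of shared constant exons.

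**Figure D1:**
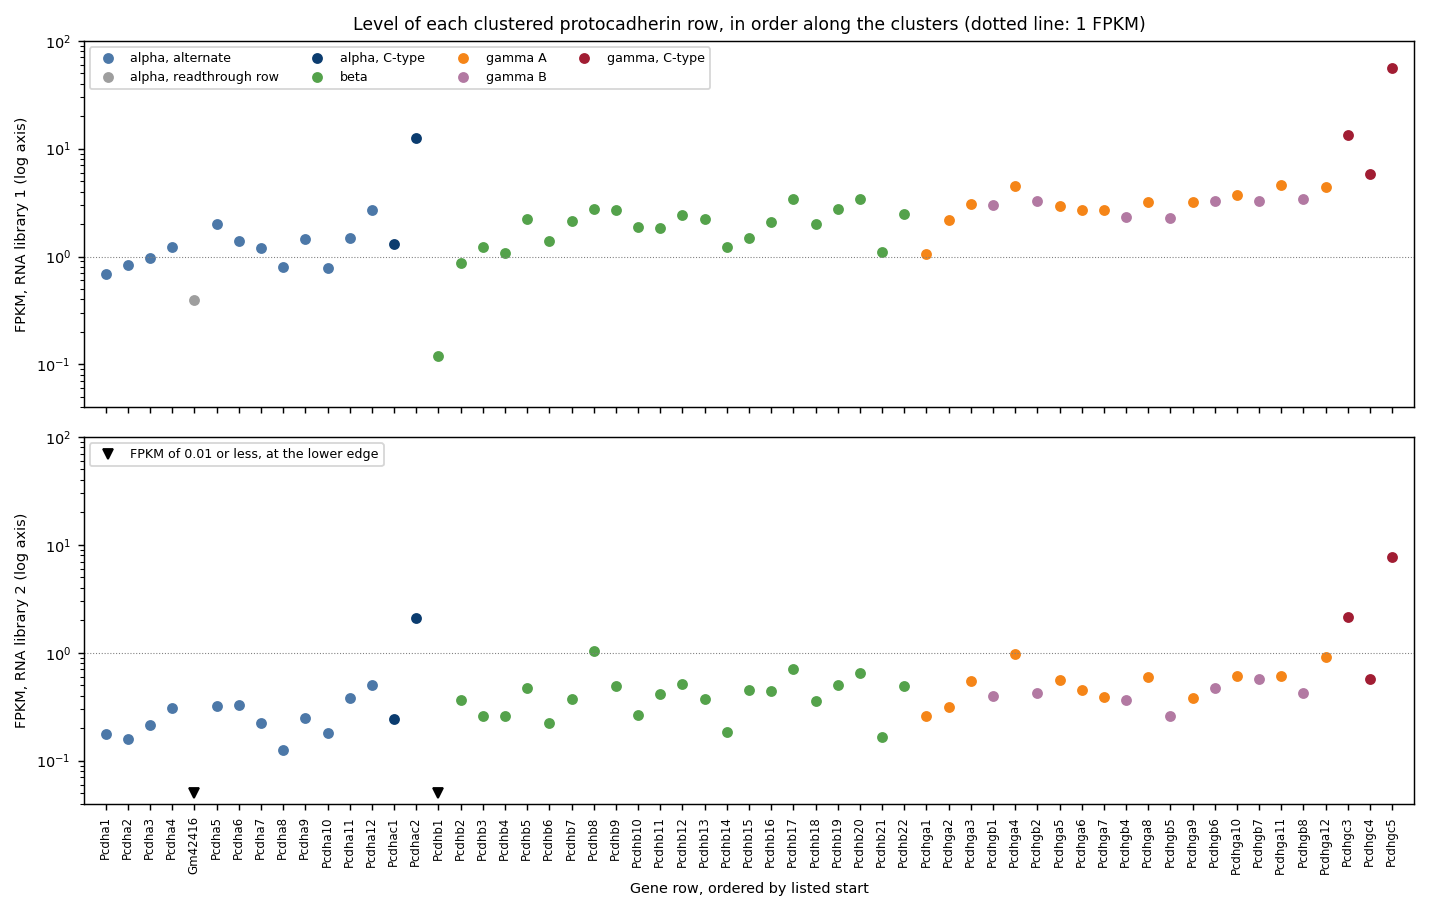
FPKM of each of the 59 rows (log axis, top library 1, bottom library 2), ordered by listed start and coloured by type. Pcdhgc5 (56.4 and 7.65), Pcdhgc3 and Pcdhac2 stand above all other rows in both libraries, and triangles mark Gm42416 (0.00448) and Pcdhb1 (0) in library 2.

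Among alternate genes, gamma genes had the highest and alpha genes the lowest FPKM. The median FPKM of the 12 alternate alpha genes was 1.22 (library 1) and 0.237 (library 2), the 22 beta genes 2.04 and 0.395, the 12 gamma A genes 3.12 and 0.549 and the 7 gamma B genes 3.25 and 0.426. The groups overlapped. Alternate alpha genes ranged from 0.695 to 2.71 in library 1, beta genes from 0.121 to 3.44, gamma A genes from 1.06 to 4.63 and gamma B genes from 2.28 to 3.44. An FPKM of at least 1 was reached in library 1 by 7 of the 12 alternate alpha genes, 20 of the 22 beta genes and all 22 gamma rows, and in library 2 by 4 of the 59 rows. FPKM of alpha and gamma genes can include reads of the shared constant exons, so their distance from the beta genes, which have none, was not separated from that difference in structure.

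Within a subcluster, FPKM tended to be higher farther along the array. The Spearman correlation of position with FPKM over alternate genes was 0.483 in library 1 and 0.490 in library 2 for 12 alpha genes, 0.501 and 0.357 for 22 beta genes and 0.605 and 0.428 for 19 gamma genes. These points share a library and, for alpha and gamma, constant exons. The first gene of the beta subcluster, Pcdhb1 (37264938 to 37267525), was the lowest beta gene, with an FPKM of 0.121 and 5 reads in library 1 and with an FPKM and read count of 0 in library 2. Pcdhb17 (37484795 to 37489454) stood second among beta genes in library 1 and in library 2, at 3.39 and 0.700. The first gamma gene, Pcdhga1, was the lowest of its subcluster in both libraries, at 1.06 and 0.259. Gm42416 was the lowest alpha row, at 0.399 and 0.00448.

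The number of allele-assigned reads behind 1 FPKM differed between the subclusters. Beta genes had a median of 73.8 reads per FPKM in library 1 and 92.1 in library 2, alternate alpha genes 46.0 and 52.2, gamma A genes 41.8 and 55.8, gamma B genes 39.9 and 51.6 and gamma C-type genes 15.6 and 26.8. Over tested autosomal genes the medians were 25.7 and 35.2. Pcdhgc5, with the highest FPKM, had 658 reads in library 1, or 11.7 per FPKM, while Pcdhb19, a beta gene at an FPKM of 2.76, had 390, or 141 per FPKM. Pcdha4 had 4 and 2 reads at an FPKM of 1.23 and 0.309. Its listed locus is overlapped from near its start by Gm42416, which had no allele-assigned read in either library. FPKM are scaled to gene length, so a longer gene has more reads behind 1 FPKM. In library 1 the longest listed beta locus, Pcdhb14 (8695 bp), had 176 reads per FPKM. The shortest, Pcdhb1 (2588 bp), had 41.5, from 5 reads. The parts of gene length and of shared exons in these differences were not tested, and the allelic values of Pcdha4 rest on 6 reads in all.

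**Figure D2:**
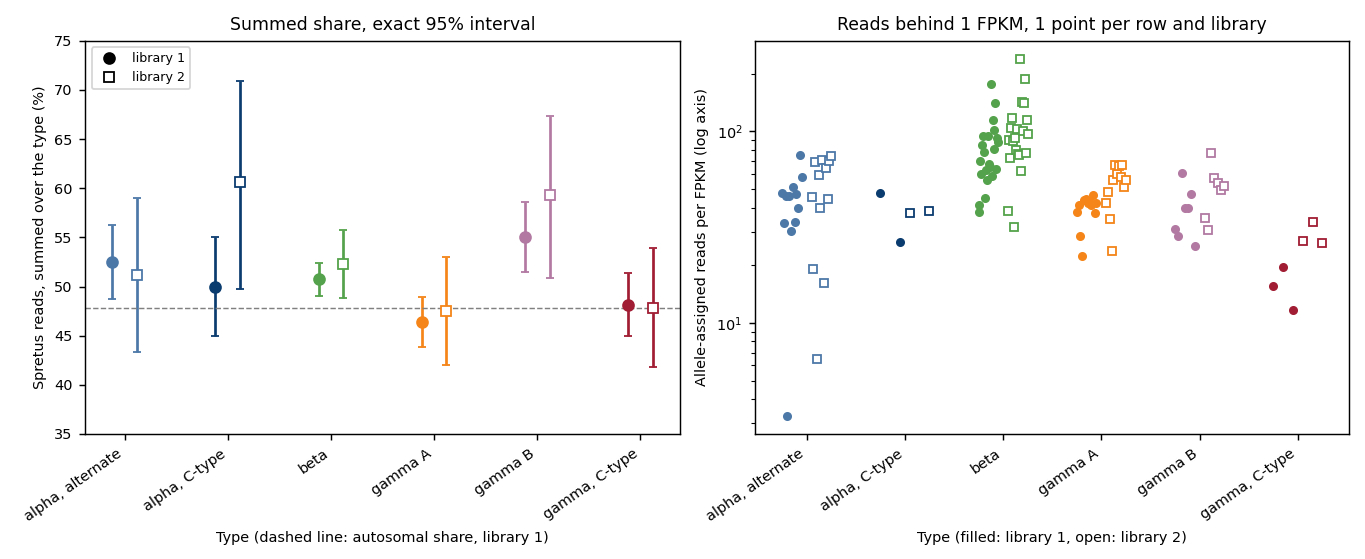
Left, Spretus share of the reads summed over each type with exact 95% intervals; right, allele-assigned reads per FPKM of each row (log axis), with filled points for library 1 and open points for library 2. Gamma B lies above gamma A on the left (55.1% and 46.4% in library 1), and on the right the median reads per FPKM is highest for beta and lowest for gamma C-type genes (73.8 and 15.6 in library 1), with Pcdha4 lower still at 3.26; rows with 0 reads or an FPKM of 0 are not drawn on the log axis.

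Summed over members, both alleles contributed nearly equally. The Spretus allele supplied 3935 of 7848 member reads in library 1 (50.1%, exact Clopper-Pearson 95% interval 49.0 to 51.3%) and 954 of 1848 in library 2 (51.6%, 49.3 to 53.9%). The share over all autosomal reads was 47.9% and 48.0%, below the member interval in each library. Without the 5 members called with allele only (below), an exclusion chosen after their values were seen, the interval included it. The share was then 48.7% (47.5 to 49.8%) in library 1 and 50.1% (47.7 to 52.5%) in library 2. The gamma intervals also included the autosomal share, at 47.3 to 50.8% and 46.2 to 53.5%. By subcluster the summed shares were 53.1% ± 2.06 (SD, n = 2) for alpha, 51.5% ± 1.14 for beta and 49.5% ± 0.590 for gamma. Reads carry no molecular identifiers, so intervals cover counting error only.

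Single members departed from these summed shares in both directions, and largely in the same way in both libraries. Of the 36 members with at least 20 reads in each library, 16 (44.4%) had a Spretus share below 40% or above 60% in library 1, against 12.0% of 9737 autosomal genes with that many reads. In library 2 there were 18 (50.0%), against 21.2%. In both libraries 6 members lay above 60% and 5 below 40%, together 30.6%, against 7.74% of the autosomal genes. Counting error is larger for the members, which had a median of 161 reads in library 1 against 297. The SD of the share over members was 11.6 percentage points in library 1, where counting error alone gives 3.93, and over the autosomal genes it was 7.47, where counting error gives 3.18. In library 2 the SDs were 14.8 with a counting error of 8.05 for members and 9.51 with 6.43 for autosomal genes. Between libraries, the share correlated with a Pearson coefficient of 0.782 and a Spearman coefficient of 0.769 over the 36 members, against 0.717 and 0.580 over the autosomal genes. These points share the cross and the reference used for alignment. Members are not independent either, since beta genes resemble each other and reads can be misplaced among them.

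**Figure D3:**
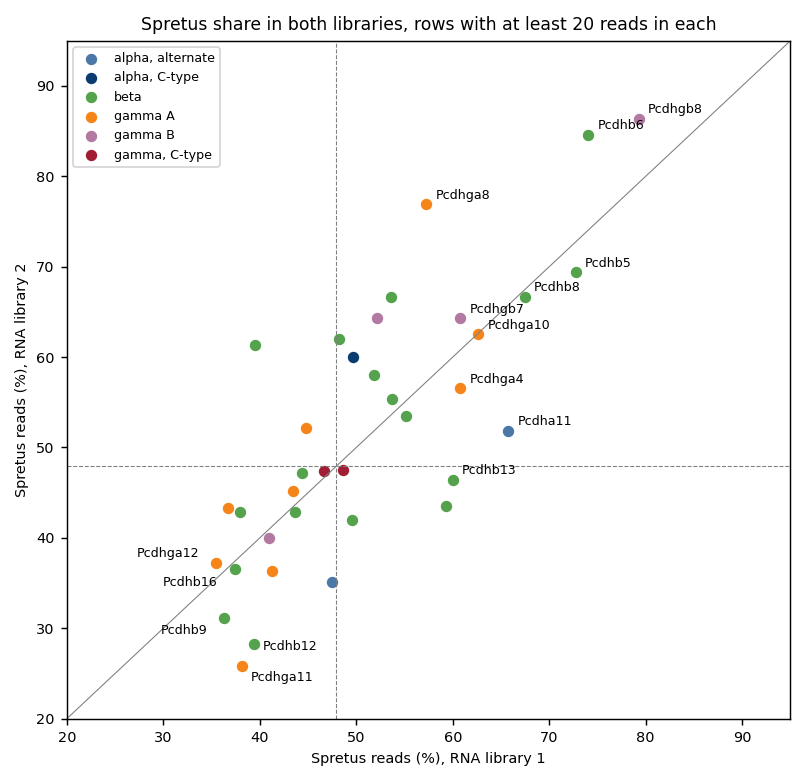
Spretus share in library 1 (x axis, percent) against library 2 (y axis, percent) for the 36 rows with at least 20 reads in each; dashed lines are the autosomal shares of 47.9% and 48.0% and the solid line marks equal shares. Pcdhgb8, Pcdhb6 and Pcdhb5 lie at the upper right in both libraries, and Pcdhga11, Pcdhb12 and Pcdhb9 at the lower left.

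Of the 59 members, 51 had at least 10 reads in each library and were tested with edgeR's quasi-likelihood test over all genes. The 8 untested rows were all but 1 of the alpha subcluster: Pcdha1, Pcdha2, Pcdha4, Gm42416, Pcdha8, Pcdha10, Pcdhac1 and, from the beta subcluster, Pcdhb1. With allele as the only term, 5 of the 51 were called at an adjusted p under 0.05, or 9.80%, against 5.43% of 11584 autosomal genes tested. Of these, 4 lay toward Spretus, where the autosomal figure is 2.39%, and 1 toward C57, where it is 3.04%. With a term for the library (the block), since both alleles were read in the same RNA, 17 were called (33.3%), against 22.5% of autosomal genes, 10 toward Spretus and 7 toward C57, where the autosomal figures are 11.1% and 11.3%. DESeq2 called 3 (5.88%), against 2.2%, with 3 toward Spretus, where the autosomal figure is 1.05%, and 0 toward C57, where it is 1.15%. The exact intervals of both libraries lay on the same side of the autosomal share for 8 members (15.7%), against 8.3% of autosomal genes. The median log2 ratio of Spretus over C57 was 0.17 over tested members and 0.02 over tested autosomal genes.

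**Figure D4:**
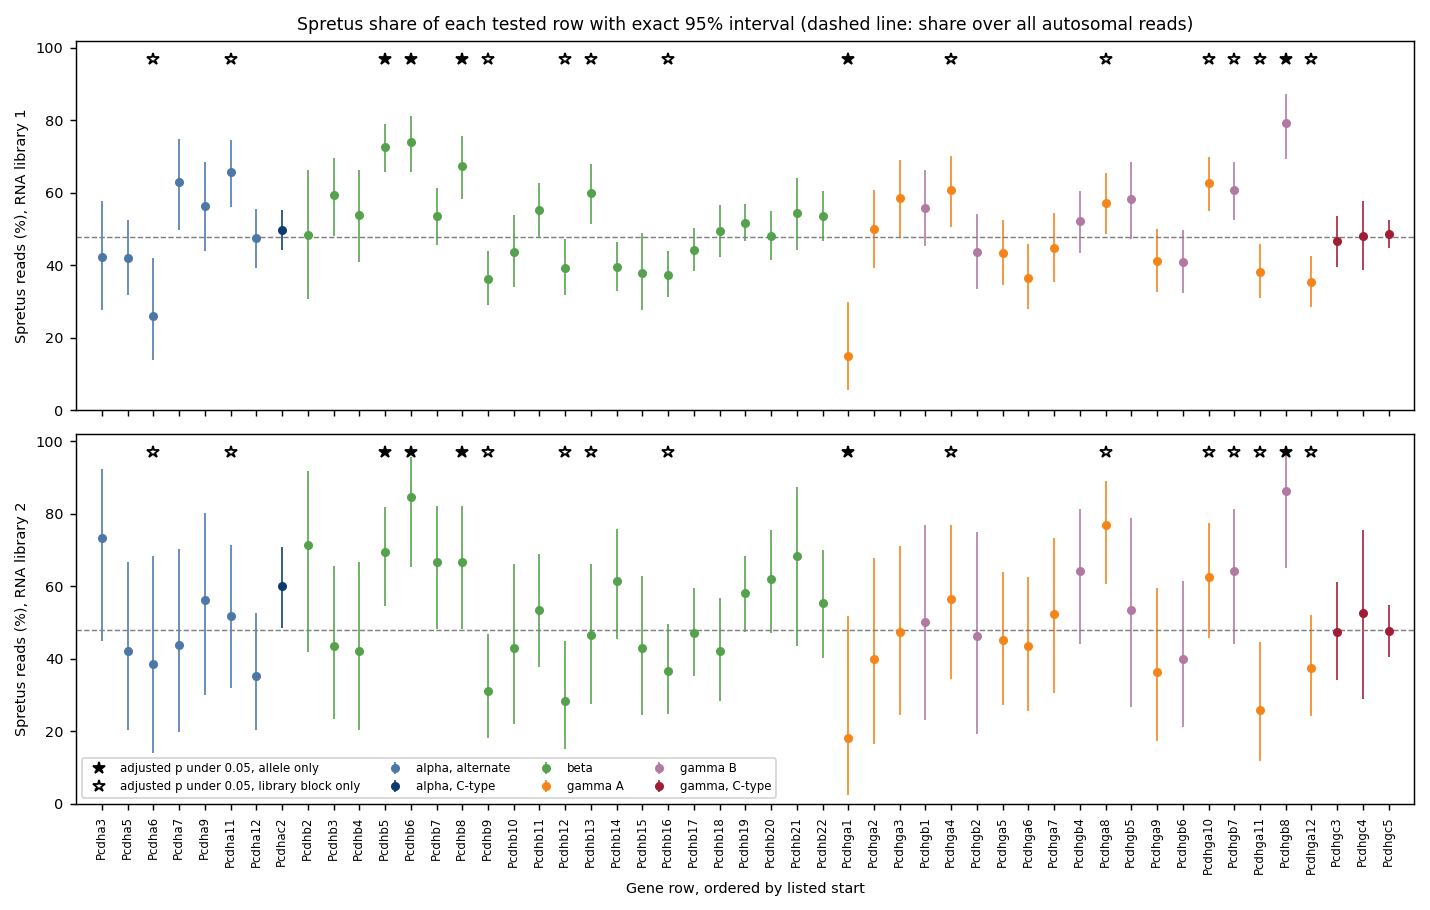
Spretus share (percent) of each of the 51 tested rows with its exact 95% interval, top library 1 and bottom library 2, in order along the clusters; dashed lines are the autosomal shares. Filled stars mark the 5 rows called with allele only (Pcdhb5, Pcdhb6, Pcdhb8, Pcdhga1 and Pcdhgb8) and open stars the 12 called only with the library block.

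Pcdhgb8 (37761801 to 37841870), the last gamma B gene, had the highest Spretus share of the tested members. Of its 87 reads in library 1, 69 were Spretus (79.3%, exact 95% interval 69.3 to 87.3%), as were 19 of 22 in library 2 (86.4%, 65.1 to 97.1%). Its log2 ratio was 2.21 (SE 0.34, Benjamini-Hochberg adjusted p = 7.76e-04 in edgeR's quasi-likelihood test), and DESeq2 also called it (adjusted p = 0.00418). Its neighbours did not share this level. Pcdhga11 before it had 107 C57 and 66 Spretus reads in library 1 and 23 and 8 in library 2. Pcdhga12 after it had 122 and 67, then 32 and 19, so that both lay below the autosomal share in each library.

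Pcdhga1 (37661793 to 37841873), the first gamma gene, had the lowest share of the tested members. Of its 40 reads in library 1, 6 were Spretus (15.0%, exact 95% interval 5.71 to 29.8%), as were 2 of 11 in library 2 (18.2%, 2.28 to 51.8%). Its log2 ratio was -2.26 (SE 0.40, adjusted p = 0.00238, edgeR quasi-likelihood with Benjamini-Hochberg adjustment), and DESeq2 did not call it (adjusted p = 0.148). The next gene, Pcdhga2, had 45 reads from each allele in library 1 and 9 and 6 in library 2. The large ratio of Pcdhga1 thus stood on few reads, and it falls below a minimum of 20 reads per library.

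In the beta subcluster the called genes lay close together. Pcdhb5 (37320381 to 37323915) had 51 C57 and 136 Spretus reads in library 1 and 15 and 34 in library 2. Its mean Spretus share was 71.1% ± 2.36 (SD, n = 2). Pcdhb6 (37333921 to 37337674) had 34 and 97 and then 4 and 22, a share of 79.3% ± 7.47. Pcdhb8 (37355121 to 37358604) had 40 and 83 and then 11 and 22, a share of 67.1% ± 0.575. In each of the 3, every library had more Spretus than C57 reads. Their log2 ratios (edgeR's quasi-likelihood test, Benjamini-Hochberg adjusted) were 1.47 (SE 0.24, adjusted p = 0.00149), 1.80 (SE 0.32, adjusted p = 0.00298) and 1.17 (SE 0.28, adjusted p = 0.0217). Pcdhb7, which lies between Pcdhb6 and Pcdhb8, had 77 C57 and 89 Spretus reads in library 1, then 11 and 22, and was not called (log2 ratio 0.52, adjusted p = 0.381, and 0.0798 with the library block). DESeq2 called Pcdhb5 (adjusted p = 0.015) and Pcdhb6 (adjusted p = 0.0106) but not Pcdhb8 (adjusted p = 0.256). Scaling both alleles by their summed library total also ended the call of Pcdhb8 (edgeR adjusted p = 0.0847).

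Farther along the beta array, Pcdhb9, Pcdhb12 and Pcdhb16 were called toward C57 and Pcdhb13 toward Spretus, with the library block only. Over the whole subcluster the block called 7 of 21 tested beta genes, 4 toward Spretus and 3 toward C57. The autosomal shares called are 22.5%, with 11.1% toward Spretus and 11.3% toward C57. Pcdhb9 had 109 C57 and 62 Spretus reads in library 1 and 31 and 14 in library 2, Pcdhb12 had 100 and 65 and then 28 and 11, and Pcdhb16 had 149 and 89 and then 40 and 23. In all 3 the share was below 40% in both libraries. Their log2 ratios in edgeR's quasi-likelihood test with the block and Benjamini-Hochberg adjustment were -0.75 (adjusted p = 0.00165), -0.62 (adjusted p = 0.0142) and -0.62 (adjusted p = 0.00188). Pcdhb13 was called toward Spretus with the block (log2 ratio 0.58, adjusted p = 0.0343), but its libraries differed, with more Spretus reads in library 1 (58 C57 and 87 Spretus) and more C57 reads in library 2 (15 and 13). Pcdhb17 lay nearer to balance, with 44.3% and 47.1%, as did Pcdhb18 with 49.5% and 42.0%.

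In the gamma subcluster, neighbouring genes lay on opposite sides of the autosomal share in 9 of 21 adjacent tested pairs and on the same side in 12. In the alpha subcluster the opposite pairs were 4 of 7, and in the beta subcluster 6 of 20. Sides were taken from reads summed over both libraries, at any distance from the autosomal share. Members close to it, such as Pcdhga2 (48.6%) and Pcdhb18 (48.0%), thus count as lying on a side. Some alpha pairs, such as Pcdha7 and Pcdha9, skip untested genes. No such count was made over autosomal genes, so these counts were not set against a background. With the library block, edgeR called Pcdhga4 (log2 ratio 0.71, adjusted p = 0.0273), Pcdhga8 (0.81, adjusted p = 0.00403), Pcdhga10 (0.87, adjusted p = 2.20e-04) and Pcdhgb7 (0.80, adjusted p = 0.0019) toward Spretus. It called Pcdhga11 (-0.68, adjusted p = 0.00678) and Pcdhga12 (-0.71, adjusted p = 0.00163) toward C57. Pcdhga10 had 65 C57 and 109 Spretus reads in library 1 and 15 and 25 in library 2, while Pcdhga11 had the opposite majority in each library. Between these lies Pcdhgb7, with 60 and 93 reads and then 10 and 18. Pcdhga8 had 57.2% in library 1 and 76.9% in library 2, so its share varied more between libraries.

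The gamma A and gamma B genes, which are interspersed along the array, differed in their summed shares in library 1. Gamma A genes had 46.4% Spretus reads (exact 95% interval 43.8 to 49.0%) and gamma B genes 55.1% (51.5 to 58.6%). In library 2 the shares were 47.5% (42.0 to 53.0%) and 59.3% (50.8 to 67.4%), and the intervals overlapped. Without Pcdhgb8, an exclusion chosen after its values were seen, the gamma B share was 52.1% (48.3 to 55.8%) and 54.5% (45.3 to 63.5%), and it overlapped gamma A in both libraries. The difference between the types was not tested.

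The gamma C-type genes had shares between 46.6% and 52.6% in both libraries. For Pcdhgc5, 320 of 658 reads in library 1 were Spretus (48.6%, exact 95% interval 44.8 to 52.5%), and 95 of 200 in library 2 (47.5%, 40.4 to 54.7%). Pcdhgc3 had 111 and 97 and then 30 and 27, or 46.6% and 47.4%, and Pcdhgc4 had 59 and 55 and then 9 and 10, or 48.2% and 52.6%. Pcdhac2 had 166 C57 and 164 Spretus reads in library 1, then 32 and 48 (60.0%). Pcdhac1 had 30 and 32 and then 3 and 6, too few for the test. Of the 4 tested C-type genes, 0 were called by edgeR with or without the block or by DESeq2, and 0 had an unadjusted edgeR p under 0.05. The autosomal shares called are 5.43%, 22.5% with the block and 2.2% by DESeq2, so 0 of 4 does not set these genes apart. The largest distance from 0 was the log2 ratio of 0.31 for Pcdhac2 (SE 0.20, adjusted p = 0.497, edgeR with Benjamini-Hochberg adjustment). Whether C-type and alternate genes differ in imbalance was not tested.

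Of the 15 alpha rows, 8 had enough reads for the test. Without the block 0 of the 8 were called by edgeR, with 2 at an unadjusted p under 0.05, and DESeq2 called 0, where the autosomal shares called are 5.43% and 2.2%. With the block, where it is 22.5%, edgeR called 2 of the 8, Pcdha6 toward C57 (log2 ratio -1.14, adjusted p = 0.037) and Pcdha11 toward Spretus (log2 ratio 0.90, adjusted p = 0.00363). Pcdha6 had 31 C57 and 11 Spretus reads in library 1 and 8 and 5 in library 2. Pcdha11 had 38 and 73 and then 13 and 14, so its imbalance came mainly from library 1. The first alpha gene, Pcdha1, had 7 and 26 reads in library 1, or 78.8% (exact 95% interval 61.1 to 91.0%), but 1 and 7 in library 2, below the read minimum.

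The authors' deposited table of allelic methylation differences held 1 region in a window of 1.2 Mb around the clusters, chr18:36979699-36980082 in mm10, 383 bp long. Listed regions numbered 0.468 per Mb on chromosome 18 and 0.419 per Mb over the autosomes, against 0.833 per Mb for this 1 region. The methylation level in the authors' deposited table was 0.820 on C57 and 0.324 on Spretus, a difference of 0.496. This is smaller than the median difference of 0.631 over 41 listed regions of chromosome 18 and of 0.747 over 1006 autosomal regions, while 14 of the 41 and 20.3% of the autosomal regions were at least as long. Loci of 8 members span it, from Pcdha1 to Pcdha7 with Gm42416. It starts 5897 bp after the listed start of Pcdha7 and ends 12289 bp before that of Pcdha8, and its end overlaps the start of the noncoding row Gm36858. Exon positions were not used here, so whether it is exonic or intronic was not determined. Pcdha7, which starts before it, had 62.9% and 43.8% Spretus reads and was not called with or without the block (adjusted p = 0.401 and 0.149, edgeR). Pcdha8, which starts after it, had 17 Spretus reads of 27 and 2 of 2 and was not tested. Gm36858 itself had 9 C57 and 22 Spretus reads in library 1 and 1 and 5 in library 2, too few for the test. No listed region lay in the beta or gamma subclusters, 285 kb and 682 kb farther on, and the level of a region outside the list is not known. The 5 members called with allele only lay outside the listed region, and Pcdha6, called with the block, has a locus that spans it. The methylation difference was not tested here.

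Of the 37 other rows of the window, 26 lie between the outermost members and 6 were tested, namely Taf7, which encodes a subunit of the general transcription factor TFIID, Diap1, a formin gene, the histone deacetylase gene Hdac3, Rell2, Fchsd1 and Arap3. Their median log2 ratio was -0.12. EdgeR called 0 of the 6 with or without the block and DESeq2 called 0, with 0 at an unadjusted p under 0.05, against autosomal shares of 5.43%, 22.5% with the block and 2.2% by DESeq2. Taf7, which lies between the beta and gamma subclusters, had 40 C57 and 33 Spretus reads in library 1 and 14 and 17 in library 2. Hdac3 had 213 and 167 and then 46 and 46. Gm38182, which lies inside the listed gamma loci, had an FPKM of 8.75 and 4.37 with no allele-assigned read in either library.

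Genes that act on or with the clustered protocadherins were read from both alleles when autosomal. Their counts stand against autosomal shares called of 5.43% with allele only, 22.5% with the block and 2.2% by DESeq2. The regulators include the insulator protein gene Ctcf, cohesin genes and Smchd1, whose product is known to repress these clusters. Of 20 tested autosomal regulators, 0 were called by edgeR with allele only or by DESeq2, with 0 at an unadjusted p under 0.05, and their median log2 ratio was 0.01. With the block edgeR called Tet2, a methylcytosine dioxygenase gene, toward C57 (log2 ratio -0.26, adjusted p = 0.00895). Trim28, a corepressor gene, had the highest FPKM of the list, at 63.7 and 10.1. Of 9 tested autosomal nonclustered protocadherin genes, 0 were called by edgeR with or without the block or by DESeq2, with 0 at an unadjusted p under 0.05 and a median log2 ratio of 0.05, and Pcdh9 was the most abundant at 103 and 18.5 FPKM, above every clustered member. Of 22 partner and processing genes, such as the kinase gene Fyn, WAVE complex genes and the sheddase gene Adam10, 0 were called with allele only or by DESeq2, with 2 at an unadjusted p under 0.05. With the block edgeR called Marcks toward C57 (log2 ratio -0.62, adjusted p = 5.67e-04) and Aph1a toward Spretus (log2 ratio 0.78, adjusted p = 0.0147). Cyfip2, of the WAVE complex, had the highest FPKM there, at 176 and 30.8. The X-linked genes Smc1a, Stag2, Pcdh11x and Pcdh19 were each called toward C57 by edgeR, with no more than 0.324% Spretus reads in either library. The design largely sets this direction in advance, since the maternal Xist mutation left nearly all Xist reads to the Spretus allele. These X-linked calls therefore say nothing particular to these genes, and the autosomal shares called are no measure for them.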

How the data were processed

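RNA-seq and MethylC-seq libraries of prefrontal cortex (2 each) were used as the authors deposited them. Per the file headers, the authors gave raw counts of reads per gene for each allele and 1 FPKM per gene for both alleles; read assignment to alleles, annotation, strand use and treatment of shared exons: not given in the sources used here. Tools named in the submitters' processing notes are HTSeq 0.6.0, TopHat2 2.0.9, bedtools 2.2.4 and Cufflinks 2.1.1, with the build mm10. The authors' deposited list of 1613 regions gives methylation as a fraction per allele. For its coverage, cytosine context and thresholds no value was used, and 13 regions without levels were left out.

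Of 46320 identifiers, 45815 matched the table of gene names, and 49 at more than 1 locus with equal counts were used once. Gene starts were moved by 1 so that coordinates count from 1. Allelic imbalance was tested with edgeR 4.0.16 in R 4.3.3 (glmQLFit and glmQLFTest, TMM, allele only, at least 10 reads in each library, Benjamini-Hochberg over all 11981 genes tested, threshold 0.05), and DESeq2 1.42.0 was an alternative. The library pairs its alleles because both come from the same RNA. The alleles' deviations between libraries correlated at 0.600 across 7559 autosomal genes that had at least 200 reads. Values with the library block stand beside results they change. On simulated counts for 11655 genes with independent columns, the allele-only fit found 2% of the 2-fold and 88% of the 4-fold changes, with 0 false calls. With the block, 52% and 98% were found and 4.46% of calls were false, and DESeq2 found 6% and 70% with 0 false calls. The counts were simulated at a coefficient of variation of 0.136, that of the allele-only fit. On the real counts the block fit estimated 0.00988. The simulated figure of 4.46% therefore does not carry over to the block calls on the real counts. Intervals are exact Clopper-Pearson 95% intervals (scipy 1.17.1). Ratios are Spretus over C57 on the log2 scale. Members, lists and named genes were chosen with earlier results of these data known. Named were members called with or without the block, C-type genes, the extremes of level and share per subcluster, and called or most abundant list genes. Exon positions and sequences were not used here. A gene of the lists is not reported here.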

Additional observations from a re-analysis of the deposited data

How the results depend on the processing

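Counts of called members depended on the test. Against 5 with allele only (4 toward Spretus, 1 toward C57), the library block, which pairs the alleles of a library, called 17 (10 and 7), DESeq2 called 3 (3 and 0), and no filter on low counts gave 8, with 7 toward Spretus. A minimum of 20 reads left 4 calls, 0 of them toward C57, because Pcdhga1 was no longer tested. Sharing a library's total moved the median autosomal log2 ratio from 0.02 to -0.11 and called 4. The block also called 1 autosomal regulator and 2 partner genes where allele only called 0. No call can be tested without 1 library, since no residual degrees of freedom are left. Of 34 single-library log2 ratios of the 17 named members, 1 changed sign: Pcdhb13 without library 1, at -0.087. Without library 1, another 5 members called only with the block moved by over 1.5 times: Pcdha6 from -1.13 to -0.52, Pcdha11 from 0.83 to 0.21, Pcdhb12 from -0.68 to -1.20, Pcdhga8 from 0.93 to 1.79 and Pcdhga11 from -0.72 to -1.36. Pcdhga8 was 0.56 without library 2. The ratios of the 5 members called with allele only moved by less.

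The summed Spretus share without 1 library ranged from 51.6% to 54.5% for alpha, 50.7% to 52.3% for beta and 49.0% to 49.9% for gamma. As a median over members with at least 20 reads it was 50.8% for alpha, over 3 genes, and 47.1% for gamma. The log2 level of gamma over beta was 0.51 as a ratio of medians and 0.84 as a mean of log2(FPKM + 0.1), and that of beta over alpha was 0.72 against 0.14 with a pseudocount of 1 and 0.34 with 0.1, so the order of the subclusters held but the distance did not. The region count was 1, and 0 with a level difference of at least 0.5. Library 2 had a median of 25 reads per member, which limits shares there. The depth behind methylation levels is unknown.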
